A study of Mus musculus with 4 samples.

Results

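The mitotic spindle, kinetochore and checkpoint genes are a list of 47 genes chosen by what their proteins do in mitosis, and 45 of them were among the 17104 genes measured in leukemic stem cells (LSCs) with and without the tetraspanin CD37. The expression of *Bub3* and *Prc1* was not analysed here, and these genes enter only the promoter counts. The LSCs were bone marrow cells sorted as YFP+, c-kit+ from male C57 mice with acute myeloid leukemia (AML), taken 6 weeks after the secondary transplantation. In both groups the leukemia came from lineage-negative bone marrow cells of CD37 fl/fl mice carrying a tamoxifen-inducible Cre, infected with a retrovirus that encodes the MLL-AF9 fusion and YFP. Primary recipients were given tamoxifen to remove the part of *Cd37* that lies between loxP sites (CD37 -/-, 2 libraries), or corn oil alone (CD37 fl/fl, 2 libraries), and sorted LSCs were passed on to the secondary recipients. The CD37 fl/fl group therefore carried Cre but was given no tamoxifen, and loss of CD37 and exposure to tamoxifen cannot be told apart in these groups. Nothing in the sources used here says whether a library came from 1 mouse or from a pool, so every p-value below measures the spread between these libraries only.

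Mitosis divides replicated chromosomes between daughter cells. Microtubules of the spindle attach to each chromosome at the kinetochore, a protein stack built on centromeric chromatin, and the spindle checkpoint holds the anaphase-promoting complex back until every kinetochore is attached. Most genes of this machinery are transcribed in G2 and M phase, when the MuvB core with B-MYB and FOXM1 drives promoters that are silenced in resting cells by the DREAM complex. Their transcripts are therefore widely used to follow proliferation in blood and leukemia.

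The values were FPKM, here fragments per kilobase of the whole genomic span of a gene (introns included), scaled by the depth of the library. The implied depth, rounded, was 15330000 and 17330000 reads for CD37 fl/fl replicates 1 and 2 and 17740000 and 22630000 reads for CD37 -/- replicates 1 and 2. A mitotic gene other than *Bub1*, whose reads could not be recovered, had between 173 and 16590 reads in a library. Paired values below are those of replicates 1 and 2 of a group, in this order. *Cd37* was at 56.6 and 46.8 FPKM in CD37 fl/fl and at 23.2 and 22.9 FPKM in CD37 -/- LSCs (log2 fold change -1.12, adjusted p = 0.104 in limma), lower in both libraries labelled CD37 -/- but not absent. loxP sites flank only some of its exons, and where in the gene the remaining reads lie was not analysed here. *Hoxa9*, a target of MLL-AF9, was at 38.8 to 47.2 FPKM in the 4 libraries, and *Kit*, which encodes the sorted surface marker, had only 213 to 804 reads. Over all 6 leukemia cell markers measured, FPKM summed to 121 and 95.8 for CD37 fl/fl against 84.6 and 67.1 for CD37 -/- LSCs, of which *Mpo*, a myeloid granule enzyme, made up 80.3, 51.6, 34.4 and 20.8. Marker sums of other cells lay apart between the groups, except that of dendritic cells and MHC class II, which overlapped. Of 10 erythroid markers measured, 8 were higher in both CD37 -/- libraries, with summed FPKM of 5.18 to 61.0 in CD37 fl/fl and 144 to 577 in CD37 -/- LSCs, and *Gata1* stayed at or below 0.047 FPKM. Their reads made up at most 0.0710% of a library. Of 8 mature neutrophil markers, 5 were higher in both CD37 -/- libraries, with summed FPKM of 372 to 2215 in CD37 fl/fl and 2743 to 3728 in CD37 -/- LSCs. Only 1 of these 8 (12.5%) was higher with an unadjusted p below 0.05 in limma, where 16.1% of all genes tested were. Of the 4 erythroid markers tested, all 4 were. Summed FPKM of the T and NK cell markers, nearly all of it *Nkg7*, was 94.7 to 118 against 40.3 to 41.4. Of these 4 markers, 1 was higher and 1 lower without overlap. That of the B cell markers was 13.4 to 15.6 against 7.09 to 9.02, although 3 of these 7 markers were higher and only 1 lower without overlap. For the dendritic cell and MHC class II markers it was 34.0 to 263 against 12.2 to 47.9, with 0 of 8 higher and 1 lower without overlap. The part of these cells in the results below was not tested. In RNA of a sorted population, more cells in mitosis and more RNA per mitotic cell cannot be told apart.

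Promoters of such genes often carry a cell cycle genes homology region (CHR), the letters TTTGAA, close to the transcription start, together with CCAAT, the letters bound by the factor NF-Y. The 150 bases before the start are shown 5′ to 3′ on the strand of the gene, from RefSeq on GRCm38.p6, with CHR and CCAAT letters on either strand in capitals (so TTCAAA and ATTGG are capitals too). First come 5 genes at higher FPKM in both CD37 -/- libraries, picked by hand: *Kif11* (chr19:37376232-37376381, + strand), *Cdk1* (chr10:69352913-69353062, - strand), *Top2a* (chr11:99024190-99024339, - strand), *Cdc20* (chr4:118437344-118437493, - strand) and *Ccnb2* (chr9:70421555-70421704, - strand, with its nearest CHR letters just past the start). *Cdk1*, *Cdc20* and *Ccnb2* share a role, and all 5 hold both kinds of letters near the start. The pick does not stand for all higher genes, as 6 tested genes without CHR letters were also higher without overlap. Then come the 3 genes at lower FPKM in both CD37 -/- libraries, *Kif22* (chr7:127042421-127042570, - strand), *Cenpm* (chr15:82244337-82244486, - strand) and *Birc5* (chr11:117849087-117849236, + strand).
Kif11: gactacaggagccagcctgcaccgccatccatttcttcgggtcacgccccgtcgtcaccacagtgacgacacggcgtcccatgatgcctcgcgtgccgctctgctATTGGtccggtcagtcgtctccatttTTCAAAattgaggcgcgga
Cdk1: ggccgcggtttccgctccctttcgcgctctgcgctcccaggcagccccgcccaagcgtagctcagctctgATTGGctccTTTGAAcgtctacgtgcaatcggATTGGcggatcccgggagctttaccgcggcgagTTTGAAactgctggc
Top2a: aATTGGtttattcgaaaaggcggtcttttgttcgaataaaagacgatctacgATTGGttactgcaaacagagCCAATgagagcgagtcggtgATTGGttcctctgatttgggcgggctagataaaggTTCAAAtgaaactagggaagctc
Cdc20: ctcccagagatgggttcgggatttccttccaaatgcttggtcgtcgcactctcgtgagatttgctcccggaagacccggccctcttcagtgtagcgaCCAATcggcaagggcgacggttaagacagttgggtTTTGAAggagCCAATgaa
Ccnb2: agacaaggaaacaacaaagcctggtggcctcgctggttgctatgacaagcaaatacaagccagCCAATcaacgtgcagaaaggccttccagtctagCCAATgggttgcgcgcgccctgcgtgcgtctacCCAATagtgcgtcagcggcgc
Kif22: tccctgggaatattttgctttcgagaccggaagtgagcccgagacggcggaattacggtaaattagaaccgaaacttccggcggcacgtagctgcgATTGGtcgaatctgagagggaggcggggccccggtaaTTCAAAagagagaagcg
Cenpm: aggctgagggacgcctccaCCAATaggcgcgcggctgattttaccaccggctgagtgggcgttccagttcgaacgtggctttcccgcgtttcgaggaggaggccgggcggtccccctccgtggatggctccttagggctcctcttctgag
Birc5: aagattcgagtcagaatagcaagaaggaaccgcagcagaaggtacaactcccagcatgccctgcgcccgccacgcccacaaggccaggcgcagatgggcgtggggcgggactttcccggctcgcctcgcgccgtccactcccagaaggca

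CHR letters stood in the promoter window (250 bases before to 50 bases after the start) of 29 of the 40 listed genes with a RefSeq window, or 72.5%, and in 20.2% of all 27025 genes with one. CCAAT letters stood in 31 of the 40 (77.5%) and in 41.1% of all genes, and both were found together in 24 (60%) and in 7.97% of all genes. 21 of the 40 windows (52.5%) held CCAAT more than once, against 13.3% of all genes. Of the 29 genes with CHR letters, 27 had them within 50 bases of the start. *Kif22* held both kinds of letters although it was lower in CD37 -/- LSCs, *Cenpm* held CCAAT alone, and *Birc5* held neither in this window. Such matches describe the letters and not a bound site. *Kif20a*, *Spc24*, *Aurkb*, *Incenp*, *Tpx2*, *Ccna2* and *Foxm1* had no window in the table used here.

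**Figure D1:**
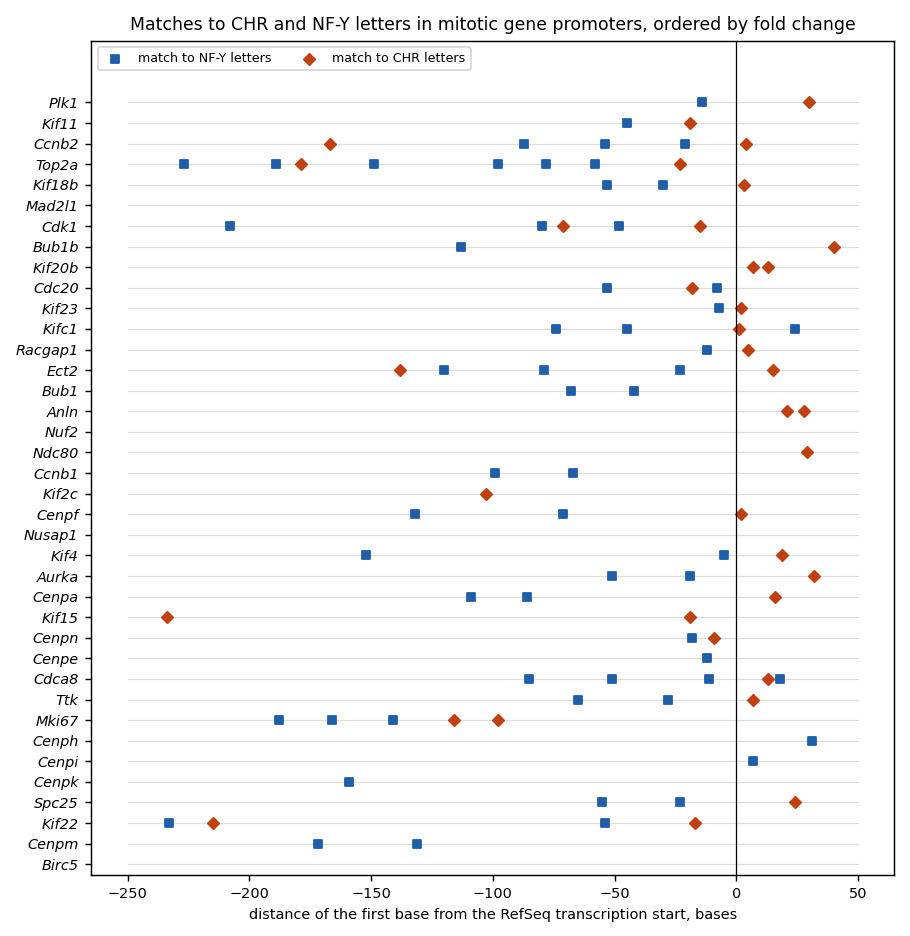
Position of matches to the CHR letters (orange diamonds) and to CCAAT, the NF-Y letters (blue squares), in the promoter window of each measured mitotic gene with a RefSeq window. The x axis is the distance of the first base from the transcription start in bases, and genes run from the highest log2 fold change (top) to the lowest (bottom). Most CHR matches lie close to the start and most CCAAT matches lie before it.

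Transcripts of 44 mitotic genes (all measured but *Bub1*, whose reads could not be recovered) made up 0.440% and 0.498% of all reads for CD37 fl/fl. For CD37 -/- LSCs they made up 0.631% and 0.633%. Of the 45 genes, 35 were at higher FPKM in both CD37 -/- libraries than in either CD37 fl/fl library, 3 were lower in both (*Kif22*, *Cenpm* and *Birc5*), and 7 overlapped between the groups. Among the 40 that passed the filter for testing (mean FPKM of at least 1), 31 were higher without overlap, or 77.5%, where 38.2% of all 6761 genes tested were. Lower without overlap were 3 of the 40, or 7.5%, where 23.7% of all genes were. The median log2 fold change on log2(FPKM + 1) was 0.39 over the 40 genes and 0.11 over all genes tested, and it was above 0 in 34 of 40 (85%) beside 58.8% of all genes.

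After adjustment by Benjamini and Hochberg in limma, 0 of the 40 mitotic genes had an adjusted p under 0.05, as had 0 of the 6761 genes (0%), and the lowest adjusted p was 0.0648 for *Kif20a* among the mitotic genes and 0.0502 among all genes. Of the 40, 14 (35%) were higher at an unadjusted p under 0.05, beside 16.1% of all genes, and 0 were lower, beside 7.96% of all genes. The adjusted p of these 14 genes lay between 0.0648 and 0.193, so none of them passed the threshold. limma-voom on the recovered reads, which tested 44 of the mitotic genes, gave 0 at an adjusted p under 0.05 and 21 higher at an unadjusted p under 0.05 (47.7%, where 19.2% of the 12901 genes it tested were), with 0 lower (where 6.1% of genes were).

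Single libraries weighed on these counts. CD37 fl/fl replicate 1 was the lowest of the 4 libraries for 35 of the 45 genes, and CD37 fl/fl replicate 2 stood above it for 38 of them. Without CD37 fl/fl replicate 1, 4 of the 40 genes (10%) were higher at an unadjusted p under 0.05, no more than the 11.2% of all genes, and the median log2 fold change of the 40 was 0.25 where that of all genes was 0.07. Leaving out CD37 -/- replicate 2 also gave 4 genes (10%, with 8.13% of all genes), leaving out CD37 -/- replicate 1 gave 8 (20%, with 14.1%), and leaving out CD37 fl/fl replicate 2 gave 18 (45%, with 15.1%). The scaling mattered too. Setting every library to the same FPKM sum (TPM) moved the median of all genes to 0.40 and quantile normalization moved it to -0.02, while the median of the mitotic genes stood above that of all genes by 0.28 as reported, 0.27 with TPM and 0.26 with quantiles. Of all genes at such a p, 66.9% were higher as reported, 91.3% with TPM and 47.5% with quantiles.

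**Figure D2:**
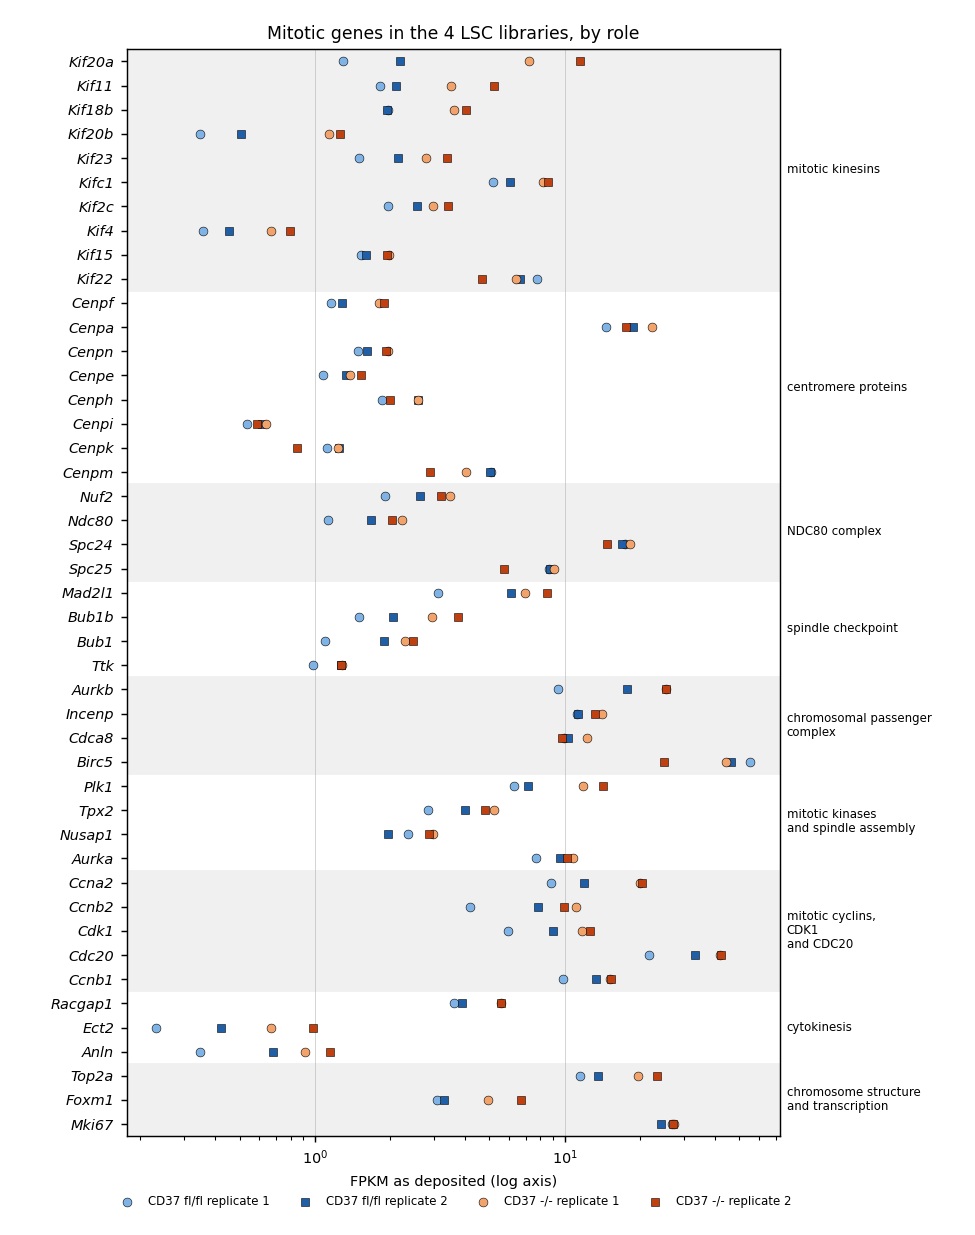
FPKM of the 45 measured mitotic genes (log axis) in each of the 4 libraries, grouped by role and ordered within a role by log2 fold change. Blue symbols are CD37 fl/fl and orange symbols CD37 -/- libraries, and 35 genes have both orange symbols to the right of both blue ones.

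**Figure D3:**
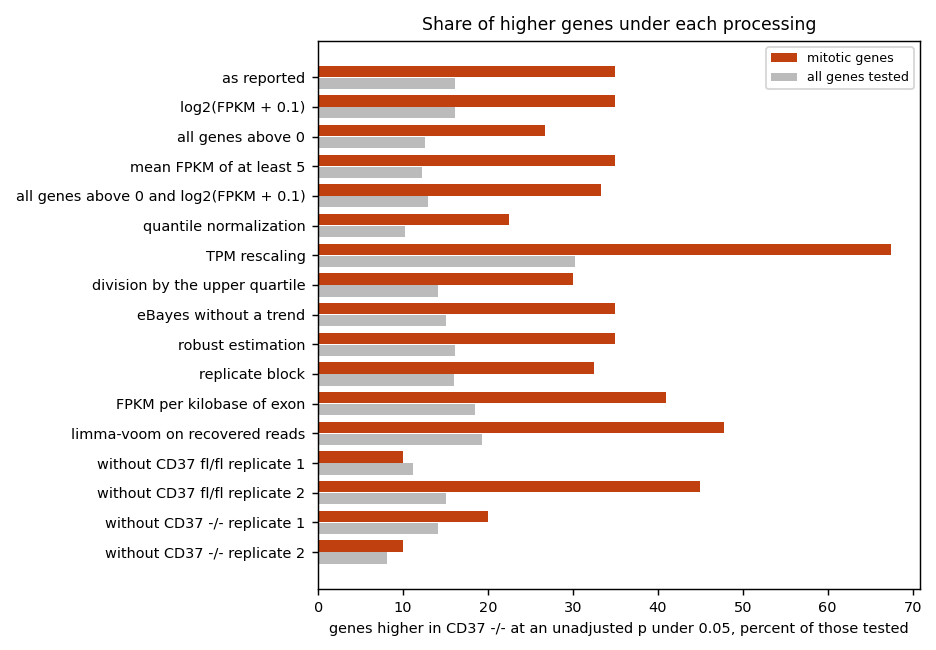
Percent of the mitotic genes tested (orange bars) and of all genes tested (grey bars) with a higher level in CD37 -/- LSCs and an unadjusted p under 0.05, as reported and under each other processing. The orange bar is the shorter one without CD37 fl/fl replicate 1 (10% and 11.2%) and the longer one in every other case drawn.

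Mitotic kinesins are motors that slide, cross-link or shorten spindle microtubules. Of the 10 measured, 9 were higher in both CD37 -/- libraries and 1 was lower in both, and 5 of the 8 tested had an unadjusted p under 0.05. Beside this and the other counts by role below stand the shares over all genes tested. Without overlap, 38.2% of these were higher and 23.7% lower. At an unadjusted p under 0.05 in limma, 16.1% were higher and 7.96% lower. The largest log2 fold change of the tested mitotic genes was that of *Kif20a*, whose product MKLP2 carries the chromosomal passenger complex to the central spindle. It was at 1.30 and 2.20 FPKM in CD37 fl/fl and at 7.19 and 11.5 FPKM in CD37 -/- LSCs, a ratio of means of 5.34. The log2 fold change was 1.90 (limma, standard error 0.29, adjusted p = 0.0648), and it lay between 1.60 and 2.20 with single libraries left out. *Kif20a* shares 1271 exon bases with *Cdc23* on the opposite strand, and *Cdc23* was also higher, at 0.584 and 1.18 against 1.54 and 2.50 FPKM (log2 fold change 0.68, adjusted p = 0.179). The libraries keep the strand but the strand setting of the counting is not given in the sources used here, so reads of these genes over the shared bases cannot be told apart. Shorter exon overlaps with genes on the opposite strand, of 53 to 233 bases, were annotated for *Cenpk*, *Cdca8*, *Nusap1*, *Plk1*, *Kif22* and *Cdc20*, and overlaps on the same strand, of 97 to 144 bases, for *Top2a* and *Foxm1*.

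*Kif11* (ENSMUSG00000012443, chr19:37376403-37421859 on GRCm38, as for all gene positions below) encodes Eg5, the motor that pushes spindle poles apart. It was at 1.82 and 2.11 FPKM in CD37 fl/fl and at 3.50 and 5.21 FPKM in CD37 -/- LSCs, with a log2 fold change of 0.84 (standard error 0.22, adjusted p = 0.127). *Kif18b*, which shortens astral microtubules, was at 1.96 and 1.95 against 3.62 and 4.05 FPKM, with a log2 fold change of 0.71 (standard error 0.17, adjusted p = 0.115). Neither gene overlapped between the groups, and for *Kif18b* the CD37 fl/fl libraries were nearly equal. *Kif23*, the motor of centralspindlin, stood at 1.50 and 2.15 against 2.80 and 3.38 FPKM (log2 fold change 0.54, adjusted p = 0.182), and *Kifc1*, which focuses the poles, at 5.18 and 6.02 against 8.16 and 8.56 FPKM (log2 fold change 0.51, adjusted p = 0.192). *Kif2c*, a depolymerase that corrects wrong attachments, and *Kif15*, a second pole-separating motor, were higher without overlap by 0.36 and 0.21 on the log2 scale, neither with an unadjusted p under 0.05.

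*Kif20b* and *Kif4* had a mean FPKM under 1 and were not tested on this scale. *Kif20b*, which acts in cytokinesis, was at 0.348 and 0.508 FPKM in CD37 fl/fl and at 1.14 and 1.26 FPKM in CD37 -/- LSCs, a ratio of means of 2.80. limma-voom on its recovered reads gave a log2 fold change of 1.50 (adjusted p = 0.0706). *Kif4*, a chromosome-bound kinesin, was at 0.356 and 0.456 against 0.666 and 0.797 FPKM, a ratio of 1.80, and it shares 832 exon bases with *Pdzd11* on the other strand. *Kif22*, the chromokinesin Kid, went the other way. It was at 7.73 and 6.62 FPKM in CD37 fl/fl and at 6.37 and 4.67 FPKM in CD37 -/- LSCs. The libraries of the groups did not overlap, but the log2 fold change of -0.34 had a standard error of 0.22 (adjusted p = 0.382).

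**Figure D4:**
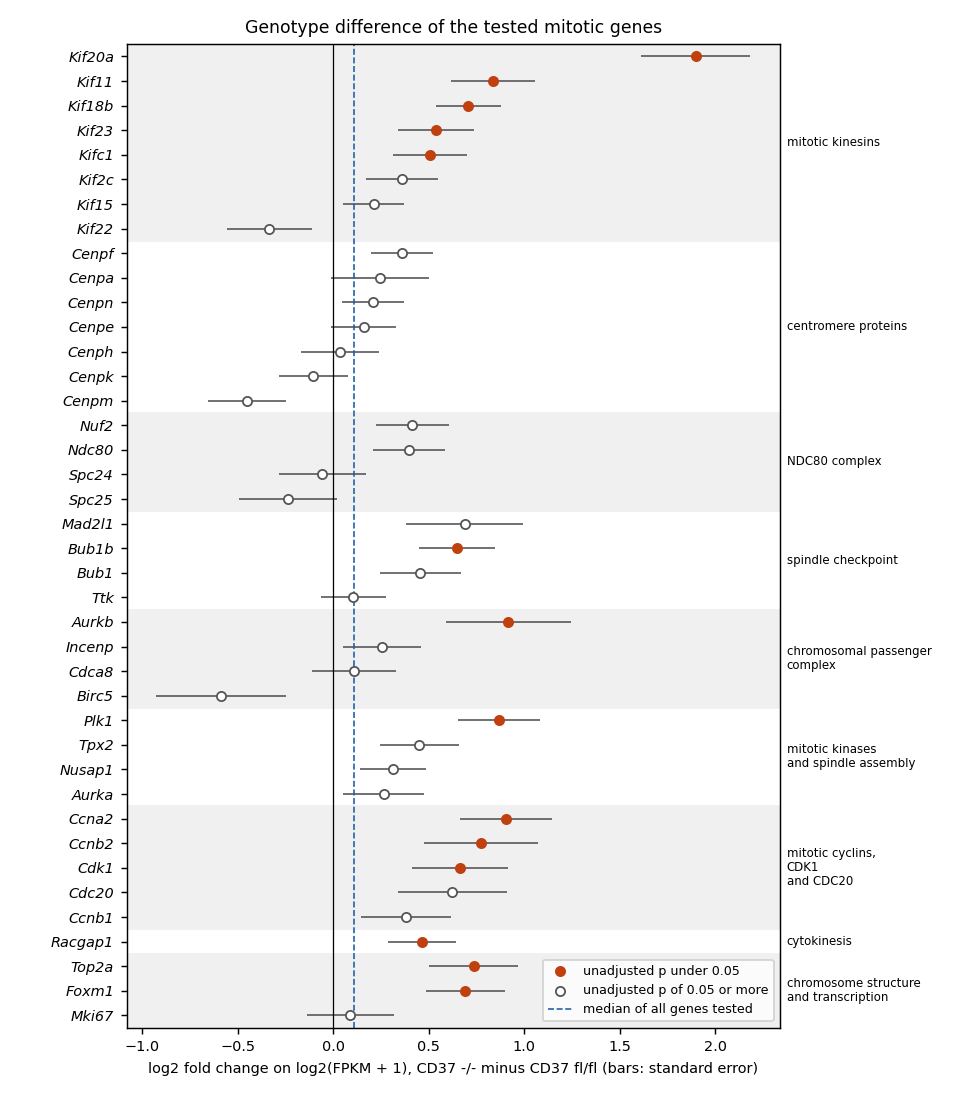
log2 fold change (CD37 -/- minus CD37 fl/fl, on log2(FPKM + 1)) of the 40 tested mitotic genes by role, with bars for the standard error from limma. Filled points mark the 14 genes with an unadjusted p under 0.05, all of them higher, and the dashed line is the median of all genes tested (0.11).

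Cyclins A2, B1 and B2 activate CDK1, and CDC20 turns on the anaphase-promoting complex that destroys them. All 5 of these genes were higher in both CD37 -/- libraries, and 3 had an unadjusted p under 0.05. *Ccna2* (ENSMUSG00000027715, chr3:36564865-36572150) was at 8.86 and 12.0 FPKM in CD37 fl/fl and at 20.1 and 20.3 FPKM in CD37 -/- LSCs, with a log2 fold change of 0.90 (standard error 0.24, adjusted p = 0.129). It shares 510 exon bases with *Exosc9* on the other strand. *Ccnb2* was at 4.17 and 7.79 against 11.1 and 9.96 FPKM (log2 fold change 0.77, standard error 0.30, adjusted p = 0.193), and *Cdk1* at 5.94 and 9.01 against 11.8 and 12.6 FPKM (log2 fold change 0.66, standard error 0.25, adjusted p = 0.188). In *Ccnb2* and *Cdk1* the CD37 -/- libraries lay close together while the CD37 fl/fl libraries lay apart, with replicate 1 the lower. *Cdc20* showed the same order, at 21.8 and 33.2 against 41.9 and 42.2 FPKM, and its log2 fold change of 0.62 had an adjusted p of 0.241. *Ccnb1* was the closest of the cyclins, at 9.88 and 13.4 against 15.2 and 15.3 FPKM (log2 fold change 0.38, adjusted p = 0.354).

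The spindle checkpoint and its sensors had 4 measured genes, all higher without overlap, with a median log2 fold change of 0.55. *Bub1b* (chr2:118598211-118641591), which encodes BUBR1 of the mitotic checkpoint complex, was at 1.50 and 2.07 FPKM in CD37 fl/fl and at 2.95 and 3.75 FPKM in CD37 -/- LSCs (log2 fold change 0.65, standard error 0.20, adjusted p = 0.149). *Mad2l1*, which encodes MAD2 of the same complex, was at 3.11 and 6.08 against 6.91 and 8.53 FPKM. Its log2 fold change was 0.69, but the CD37 fl/fl libraries differed more from each other than the groups' nearest libraries did, and the adjusted p was 0.230. *Bub1*, the kinase that recruits the checkpoint to kinetochores, was at 1.10 and 1.90 against 2.29 and 2.48 FPKM (log2 fold change 0.46, adjusted p = 0.247). *Ttk*, the MPS1 kinase at the top of the pathway, was at 0.981, 1.28, 1.29 and 1.28 FPKM, so that a single CD37 fl/fl library stood apart and the other 3 libraries were nearly equal.

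The chromosomal passenger complex corrects attachments and guides cytokinesis, and its 4 genes differed in direction. *Aurkb* (chr11:69045647-69051664), its kinase, was at 9.42 and 17.7 FPKM in CD37 fl/fl and at 25.4 and 25.3 FPKM in CD37 -/- LSCs, with a log2 fold change of 0.92 (standard error 0.33, adjusted p = 0.173). *Incenp*, the scaffold, was at 11.2 and 11.4 against 14.2 and 13.2 FPKM (log2 fold change 0.26, adjusted p = 0.460). *Cdca8*, which encodes borealin, overlapped between the groups at 9.97 and 10.3 against 12.3 and 9.80 FPKM. *Birc5*, which encodes survivin, was at 55.3 and 46.3 FPKM in CD37 fl/fl and at 44.2 and 25.1 FPKM in CD37 -/- LSCs. It was the lowest log2 fold change of the tested mitotic genes, at -0.59 (standard error 0.34, adjusted p = 0.321), and without CD37 -/- replicate 2, the library furthest from the rest, it was -0.19.

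Among mitotic kinases and spindle assembly factors all 4 genes were higher in both CD37 -/- libraries. *Plk1* (chr7:122159439-122169873), the kinase that matures centrosomes and starts cytokinesis, was at 6.26 and 7.13 FPKM in CD37 fl/fl and at 11.9 and 14.3 FPKM in CD37 -/- LSCs. The log2 fold change of 0.87 (standard error 0.21, adjusted p = 0.117) came with each CD37 -/- library well above both CD37 fl/fl libraries. *Aurka*, the spindle pole kinase, was at 7.70 and 9.60 against 10.8 and 10.2 FPKM (log2 fold change 0.26, adjusted p = 0.466), and its activator *Tpx2* was at 2.83 and 4.01 against 5.21 and 4.78 FPKM (log2 fold change 0.45, adjusted p = 0.243). *Nusap1*, a microtubule bundler, was at 2.36 and 1.96 against 2.97 and 2.87 FPKM (log2 fold change 0.31, adjusted p = 0.306), and here CD37 fl/fl replicate 2 was the lower one.

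For the centromere proteins the median log2 fold change was 0.16, where that of the mitotic kinesins was 0.52 and that of the cyclins, *Cdk1* and *Cdc20* 0.66, and these differences were not tested. Adding 1 to the FPKM before the logarithm shrinks fold changes more in genes at low FPKM, so such medians also depend on level. At the same ratio of means of 1.53, the log2 fold change was 0.40 for *Ndc80* and 0.62 for *Cdc20*. Of the 8, 3 were higher without overlap, 1 was lower without overlap and 4 overlapped, and 0 of the 7 tested had an unadjusted p under 0.05. *Cenpf*, a large protein of the outer kinetochore, was at 1.17 and 1.29 against 1.80 and 1.90 FPKM (log2 fold change 0.36, adjusted p = 0.237). *Cenpn*, which reads centromeric nucleosomes, and *Cenpe*, a kinetochore motor, were higher without overlap by 0.21 and 0.16. *Cenpa*, the histone H3 variant that marks the centromere, overlapped at 14.6 and 18.9 against 22.4 and 17.6 FPKM. The genes of the inner kinetochore network listed next overlapped as well, *Cenph* at 1.85 and 2.59 against 2.59 and 2.01 FPKM, *Cenpk* at 1.12 and 1.26 against 1.24 and 0.846 FPKM, and *Cenpi*, which was not tested, at 0.537 and 0.616 against 0.638 and 0.586 FPKM. *Cenpm*, of the same network, was at 5.09 and 5.01 FPKM in CD37 fl/fl and at 4.02 and 2.89 FPKM in CD37 -/- LSCs, lower without overlap by 0.45 on the log2 scale (standard error 0.20, adjusted p = 0.235).

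The NDC80 complex, which holds the microtubule, is built of 2 dimers, by which its genes are given here. *Ndc80* and *Nuf2*, which make the microtubule-binding end, were both higher without overlap. *Nuf2* was at 1.91 and 2.64 against 3.47 and 3.19 FPKM (log2 fold change 0.41, adjusted p = 0.244), and *Ndc80* at 1.13 and 1.67 against 2.23 and 2.05 FPKM (log2 fold change 0.40, adjusted p = 0.253). *Spc24* and *Spc25*, which make the centromere end, overlapped between the groups. *Spc24* was at 17.4 and 16.9 against 18.3 and 14.8 FPKM (log2 fold change -0.06), and *Spc25* at 8.65 and 8.77 against 9.08 and 5.72 FPKM (log2 fold change -0.24). In both, CD37 -/- replicate 1 was the highest and CD37 -/- replicate 2 the lowest of the 4 libraries. The difference between the dimers was not tested.

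Of the cytokinesis genes, *Racgap1*, the partner of *Kif23* in centralspindlin, was at 3.62 and 3.87 FPKM in CD37 fl/fl and at 5.56 and 5.54 FPKM in CD37 -/- LSCs (log2 fold change 0.46, standard error 0.18, adjusted p = 0.188), with replicates of each group close together. *Ect2*, the exchange factor that activates RhoA at the cell equator, was at 0.233 and 0.421 against 0.667 and 0.981 FPKM, a ratio of means of 2.52. *Anln*, which encodes the scaffold anillin, was at 0.348 and 0.682 against 0.916 and 1.15 FPKM, a ratio of 2.01. Both were below the filter for testing, and neither overlapped between the groups.

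*Foxm1* (chr6:128362967-128376146), which encodes a transcription factor of G2 and M phase genes, was at 3.10 and 3.28 FPKM in CD37 fl/fl and at 4.94 and 6.69 FPKM in CD37 -/- LSCs (log2 fold change 0.69, standard error 0.21, adjusted p = 0.144). *Top2a* (chr11:98992943-99024189), the topoisomerase that untangles sister chromatids, was at 11.6 and 13.6 against 19.7 and 23.5 FPKM (log2 fold change 0.74, standard error 0.23, adjusted p = 0.151), and the groups were well apart in both genes. *Mki67*, the source of the Ki-67 antigen by which dividing cells are counted, was at 26.9 and 24.2 against 27.4 and 27.0 FPKM. With a log2 fold change of 0.09 (standard error 0.23, adjusted p = 0.829) it stood near the median of all genes although it did not overlap. Per kilobase of exon, the genes at the highest mean level over the 4 libraries were *Cdc20* (82.9), *Birc5* (81.5), *Incenp* (78.5), *Ccnb2* (74.7) and *Mki67* (69.8), all as FPKM recomputed per kilobase of exon. The order was not the same in the groups. *Birc5* was the highest in both CD37 fl/fl libraries (106 and 88.3, with *Cdc20* at 52.0 and 79.1), while *Cdc20* (99.9 and 100.5) and *Ccnb2* (100.5 and 90.2) led in both CD37 -/- libraries. Only *Ccnb2* of these 5 was among the 14 genes with an unadjusted p under 0.05.

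Fold changes went with exon length over all genes, where exon length counts every annotated exon base of a gene and not a single transcript. Across 5768 protein-coding genes tested, Spearman's rho of the log2 fold change with exon length was 0.33, and the median log2 fold change ran from -0.25 in the shortest of 5 equal groups of genes to 0.25 in the longest. Across the 40 mitotic genes rho was 0.03, where genes share the same 4 libraries and are not independent. In the shortest group, the 4 mitotic genes (*Cenph*, *Cenpm*, *Ccnb2* and *Cdc20*) had a median of 0.33, and in the longest group the 11 mitotic genes, among them *Kif11*, *Top2a* and *Mki67*, had a median of 0.41. Between them, in genes with 4394 to 6174 bases of exon, the median of 8 mitotic genes (0.18) was below that of all genes (0.21). The part of length in single fold changes was not tested.

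**Figure D5:**
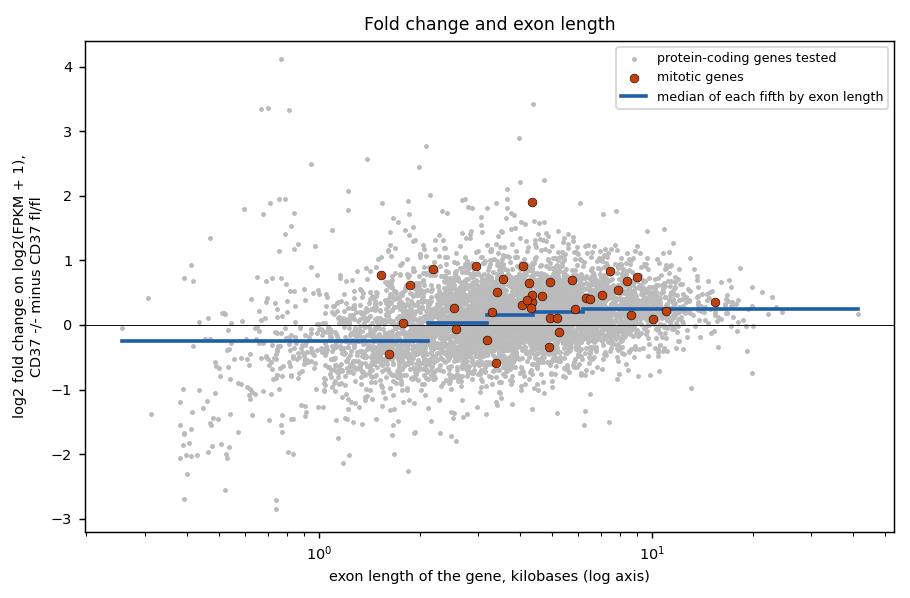
log2 fold change (CD37 -/- minus CD37 fl/fl, on log2(FPKM + 1)) against exon length in kilobases (log axis) for 5768 protein-coding genes tested (grey) and the 40 tested mitotic genes (orange). Blue bars are the median of each of 5 equal groups of genes by exon length, from -0.25 to 0.25, where rho over the mitotic genes is 0.03.

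Of the tested genes with a promoter window, the 23 with CHR letters had a median log2 fold change of 0.40, 19 were higher without overlap, and 10 had an unadjusted p under 0.05. The 10 without CHR letters had a median of 0.24, 6 were higher without overlap, and 0 had an unadjusted p under 0.05. Over all genes tested, 38.2% were higher without overlap and 16.1% were higher at such a p in limma. *Kif20a*, *Aurkb*, *Ccna2* and *Foxm1* also had such a p but no window, so the split leaves them out. *Ccnb1*, *Cenpe* and *Birc5*, counted as without, hold TTTAAA, a variant of the CHR letters. The ranges ran from -0.34 to 0.87 with CHR letters and from -0.59 to 0.69 without them, and the difference was not tested.

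Other genes of the same processes were read from lists set for this purpose. Of 59 other mitotic genes tested, 15 (25.4%) were higher and 1 was lower at an unadjusted p under 0.05, where 16.1% and 7.96% of all genes were, with a median log2 fold change of 0.36 and 0 at an adjusted p under 0.05 in limma. Among these the kinase *Nek2* (2.36 and 3.75 against 5.96 and 6.05 FPKM, log2 fold change 0.81), the spindle protein *Troap* (0.81), the inner kinetochore gene *Cenpq* (0.71) and the augmin subunit *Haus2* (0.68) were higher, and *Cenps* (8.33 and 7.73 against 5.35 and 3.20 FPKM, -0.80) was lower. The other 5 augmin genes tested, looked up after the values were seen, had log2 fold changes between -0.46 (*Haus1*) and 0.36 (*Haus4*), and none had an unadjusted p under 0.05. Of 6 DREAM and MMB genes tested, 2 (33.3%, where 16.1% of all genes were) were higher at an unadjusted p under 0.05. These were *Mybl2*, which encodes B-MYB, at 2.55 and 2.62 against 5.24 and 5.22 FPKM (log2 fold change 0.80, adjusted p = 0.103 in limma), and the E2F partner *Tfdp1* (0.84). Subunits and regulators of the anaphase-promoting complex had a median of -0.09 over 14 genes, with 2 (14.3%, below the 16.1% of all genes) higher, the inhibitor *Fbxo5*, known as EMI1 (1.10), and *Cdc23*. Of 35 S-phase genes tested, 8 (22.9%, where 16.1% of all genes were) were higher and 1 was lower, with a median of 0.31. *E2f8* (1.35), *Mcm4* (1.21) and *Mcm2* (1.14) of the replicative helicase and *Fen1* (1.05) stood highest among them, and *Rfc2*, of the clamp loader, was lower (-0.69).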

How the data were processed

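mRNA of the 4 LSC samples (2 per genotype) was made into libraries that keep the strand. The table deposited by the authors holds FPKM on a linear scale, with 1 column for each library. Per the labels, fastp 0.20.1, STAR 2.7.7a, featureCounts 2.0.0 and edgeR were used with mm39. Gene names and positions here are those of GENCODE M21 on GRCm38, which matched 17045 of 17104 identifiers (99.7%). With its gene spans the values came out as whole reads for 16843 genes (98.5%) in all 4 libraries (tolerance 0.05 reads), and 44 of the 45 mitotic genes were whole (*Bub1* was not). With exon length 10.8% to 11.3% of values did. The implied totals are not stated by the authors.

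log2(FPKM + 1) of the 6761 genes whose mean FPKM reached 1 was fitted in limma 3.58.1 (R 4.3.3; lmFit, eBayes with a trend) without a replicate block, adjusting p-values over these genes by the method of Benjamini and Hochberg (threshold 0.05). Tables and figures used Python 3.11.15, pandas 2.3.3, numpy 2.4.6 and matplotlib 3.10.9. The code was tested on simulated data. Lists were described by counts and medians beside those of all genes tested, with no set test. The mitotic genes, the other lists and the markers were chosen with earlier results of these data known. Every listed gene could be named, FPKM in all libraries was printed for the genes with the lowest p in each role, for the 5 highest per kilobase of exon and for those lower, overlapping or not tested, and up to 4 genes per direction were named from each other list. Promoters were read from RefSeq windows on GRCm38.p6 (250 bases before to 50 after the start) and searched on both strands for the CHR letters TTTGAA, for their variant TTTAAA, for CCAAT, and for E2F letters (TTCCCGC or else TTGGCGC or else TTCGCGC), which were not required to be free of overlap. *Bub1* has no recovered reads and is absent from values per exon and from limma-voom, which took genes averaging 10 reads or more. The other processings tried are given with the results that depend on them.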

Additional observations from a re-analysis of the deposited data

How the results depend on the processing

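The count of mitotic genes at an adjusted p under 0.05 was 0 as reported and 1 with robust estimation or with the replicate number as a block, in both cases *Kif20a* (adjusted p = 0.0432 and 0.0474 in limma, with 0.0432 to 0.257 over all its alternatives), where all genes called numbered 88 and 73 of 6761. Of all genes, 45 of 3118 were called at a minimum mean FPKM of 5 and 16 of 10428 per kilobase of exon, none of them mitotic genes on the list. Deviations from the group mean correlated over genes with r = -0.04 between libraries of the same replicate number. With 2 libraries a group this value is the same for both numbers, and it cannot show whether samples were paired. The replicate block left 13 genes higher at an unadjusted p under 0.05 in limma. That count, 14 as reported, was 7 of 20 at a minimum mean FPKM of 5 (12.2% of all genes were), 9 with quantile normalization (10.2%), 27 with TPM rescaling (30.3%, where 16.1% were as reported) and 4 to 18 with single libraries left out. Lower genes at an unadjusted p under 0.05 in limma numbered 0 as reported, 1 with quantile normalization and 1 with division by the upper quartile. Of all 6761 genes, 538, 763 and 677 were lower at such a p in these 3 settings. The median log2 fold change, 0.39 as reported, was 0.55 with log2(FPKM + 0.1), 0.56 with that and all genes above 0, 0.24 with quantile normalization, 0.67 with TPM rescaling, 0.54 per kilobase of exon, 0.57 in limma-voom and 0.25 to 0.53 with single libraries left out. Mitotic genes without overlap numbered 14 higher of 20 at a minimum mean FPKM of 5, and the lower ones numbered 5 with quantile normalization and 1 with TPM rescaling. With single libraries left out, which can only keep or raise such a count, the lower ones numbered 3 to 7. The shares of all genes without overlap under these settings are not given here, so these counts have no background beside them. The log2 fold change changed sign with quantile normalization for *Kif15* (-0.0038), *Cenpe* (-0.0599), *Cenph* (-0.17), *Cenpn* (-0.0069) and *Ttk* (-0.12), with division by the upper quartile for *Cenph* (-0.0014), and with TPM rescaling for *Cenpk* (0.0915), *Spc24* (0.30) and *Spc25* (0.10). With single libraries left out it ranged from -0.13 to 0.20 for *Cenph*, -0.25 to 0.0372 for *Cenpk*, -0.20 to 0.0851 for *Spc24*, -0.53 to 0.0540 for *Spc25* and -0.0445 to 0.26 for *Cdca8*. The cause of these changes was not tested, beyond the fewer genes or libraries in some of them. With 2 libraries a group, leaving 1 out assumes that the lone library varies like the other group.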

Other observations

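Tubulins are the subunits of the spindle microtubules themselves. Of 10 tubulin genes tested, 0 had an unadjusted p under 0.05 in limma, 4 had a log2 fold change above 0, and the median was -0.10. Without overlap, 1 of the 10 was higher and 4 were lower. Over all genes tested, 16.1% were higher and 7.96% lower at such a p, and 58.8% were above 0, with a median of 0.11. Without overlap, 38.2% of all genes were higher and 23.7% lower. The 6 tested kinesins of transport rather than mitosis had a median of 0.28, all above 0 and 0 with an unadjusted p under 0.05 in limma. Of these 6, 3 were higher and 0 lower without overlap. The median difference of these lists from the mitotic genes was not tested.

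The letters TTTAAA, a variant of the CHR, stood in 9 of the 40 mitotic promoter windows (22.5%) and in 14.9% of all genes, and 1 of the E2F letters stood in 9 of the 40 (22.5%) and in 9.20% of all genes. The 8 tested mitotic genes with E2F letters, among them *Cdk1*, *Ccnb1*, *Cenpm* and *Mki67*, had a median log2 fold change of 0.15, and the 25 without them had a median of 0.41. These are descriptions of overlapping sets of genes in the same 4 libraries.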
